A study of Drosophila melanogaster with 34 samples.

Results

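Among the 72 ribosomal RNA (rRNA) positions measured for 2′-O-methylation in this fruit fly study, 10 carry the word unknown where the tables name the guide RNA of the other sites. They are the subject here. The rule takes every position annotated as unknown and leaves out 28S Gm2502, which carries the same annotation and is therefore given beside each count. Unknown means that no guide is listed in the tables, not that none exists. Of the other positions, 59 have at least 1 listed guide and 2 have a named methyltransferase. The 10 sites lie 5 in the 18S rRNA of the small ribosomal subunit and 5 in the 28S rRNA of the large subunit. In 18S they are Um[Psi]568, Am1272, Gm1300, Am[m62A]1976 and Am[m62A]1977. In 28S they are Am549, Um1859, Am1897, Am3006 and Um3162.

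A methyl group on the 2′ oxygen of the ribose is one of the most common modifications of rRNA. In animals nearly all of these methyl groups are placed by fibrillarin, the methyltransferase of the box C/D small nucleolar ribonucleoprotein, and a guide RNA that pairs with the rRNA beside the site chooses the nucleotide. A few rRNA sites in other organisms are methylated by stand-alone protein enzymes with no guide. RiboMeth-seq reads the modification through its chemistry: a methylated ribose protects the neighbouring bond from alkaline hydrolysis, so fewer fragments end there than at positions around it.

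The deposited level score of a site ends at 1, and a higher score stands for stronger protection against its neighbours. It is not a bounded fraction of methylated molecules. S2R+ cells, a cultured Drosophila line, had received double-stranded RNA against lacZ (4 libraries, a bacterial gene used as control) or against Fib (4 libraries). All other libraries came from female fly heads. Of these, 3 were from flies kept on 5% sucrose for 8 days and 3 from flies given 5% sucrose with 2.5 nM paraquat, an oxidant herbicide, for the same time. Groups of 4 libraries each came from flies held in darkness at 18, 25 or 29 °C for 8 days. Another 4 libraries each came from flies fed for 10 days on home-made 1x food or on a low-nutrient food labelled as 0.25x sugar without a.a. No label used here states the genotype or age of the flies. The titles of the sucrose and paraquat libraries carry the mark d17, which is not explained, and the paraquat dose is printed as labelled. The labels call the S2R+ cells mesenchymal stem cells, and the tables hold rRNA positions only, so neither that cell type nor the depth of the Fib knockdown could be checked. Median coverage over the 72 sites lay between 28370.5 and 104242 reads in the 34 libraries. Nothing in the labels shows that replicates came from independent cultures or batches of flies. The p-values therefore reflect the spread between libraries alone, which may be technical.

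The bases of the 10 sites of unknown guide were 6 adenosines, 3 uridines, 1 guanosine and 0 cytidines. The 59 guided sites held 22 adenosines, 5 uridines, 18 guanosines and 14 cytidines. In 9 of the 10 the site name contains a low line character, which the sources do not explain. Only 1 other site of the 72 has it, and 18S Am1272 does not. 28S Am3006 and 28S Um3162 have an alternative name in the tables, 28S Am3005 and 28S Um3161. 18S Um[Psi]568 is listed as a pseudouridine as well.

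Few of these sites stand close to another listed site. 18S Am[m62A]1976 and 18S Am[m62A]1977 are direct neighbours, so their scores can draw on shared positions. Both are written as N6,N6-dimethyladenosine, a base modification that in yeast and human is placed on a pair of adjacent adenosines near the 3′ end of the small subunit rRNA by the Dim1 family of enzymes. 18S Gm1300 lies 3 positions from the guided 18S Cm1303, and 28S Um3162 lies 10 positions from the guided 28S Gm3152. The remaining sites are at least 18 positions from any other listed site, and 28S Am549 is 240 positions away.

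Coverage divided the sites sharply. 18S Am[m62A]1976 was covered by 144 to 1062 reads per library and 18S Am[m62A]1977 by 119 to 890 reads. 28S Am3006 had 1071 to 6123 reads, and 18S Am1272 had 7009 to 25705. The other 6 were never below 15865 reads, and 28S Um1859 reached 276741. The adjacent pair in 18S therefore rests on the fewest reads, and 28S Am3006 on the next fewest. The counting error of the scores was not computed and need not follow coverage alone.

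In control cells and in heads the 10 sites scored below most guided sites. Their median score in LacZ cells was 0.875, against 0.958 for the guided sites. Over the 7 head groups the median of the 10 sites ran from 0.869 at 25 °C to 0.900 on 1x food, while that of the guided sites ran from 0.980 to 0.986. Ranked among all 72 sites by group mean, none of the 10 was among the 36 highest in LacZ cells or in any head group. Within those ranks, 7 guided sites lay below all 10 in LacZ cells, and 2 or 3 in each head group.

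**Figure D1:**
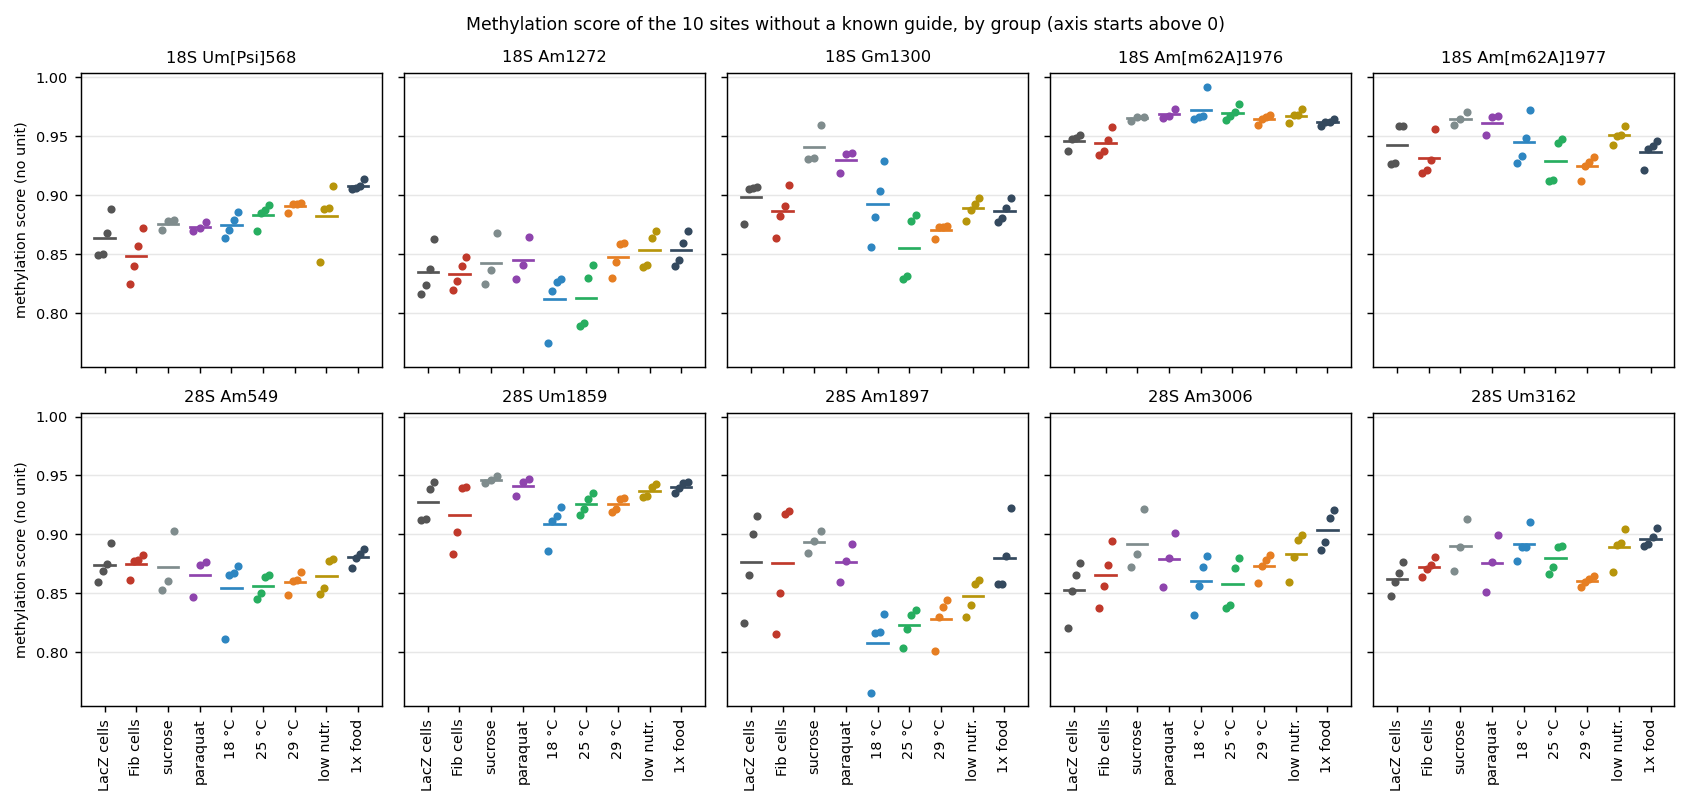
Methylation score (deposited level score, no unit, axis cut to the measured range) of the 10 rRNA sites with no known guide in every library, grouped by treatment; points are libraries, ordered by score within a group, and bars are group means. 18S Am[m62A]1976 stays within 0.934 to 0.992 in all 34 libraries, while 28S Am1897 spans 0.766 to 0.923.

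The 10 sites differed from each other in level. The highest was 18S Am[m62A]1976, whose group means lay between 0.944 in Fib cells and 0.973 at 18 °C, followed by its neighbour 18S Am[m62A]1977, with group means of 0.924 at 29 °C to 0.965 on sucrose. The 28S Um1859 means ran from 0.909 at 18 °C to 0.946 on sucrose, and those of 18S Gm1300 from 0.855 at 25 °C to 0.941 on sucrose. These ranges overlap between neighbours in the order.

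The next sites covered much the same range. The group means of 28S Am549 lay between 0.855 and 0.881, and those of 28S Um3162 between 0.861 and 0.896. 28S Am3006 ranged from 0.853 to 0.903, and 18S Um[Psi]568 from 0.849 to 0.908. 18S Am1272 was lower in several groups, at 0.812 to 0.854.

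The group means of 28S Am1897 and 18S Gm1300 moved most, over ranges of 0.0858 and 0.0853. At both sites the highest mean was on sucrose and the lowest in a temperature group. The sucrose and paraquat libraries carry another run of library numbers than the other head libraries. Treatment and run cannot be told apart in these ranges. At 28S Am1897 the group mean was 0.894 on sucrose, 0.880 on 1x food, 0.847 on low-nutrient food and 0.808 at 18 °C. Replicate 3 gave 0.766 at 18 °C, and the other 18 °C libraries 0.833, 0.817 and 0.817. The spread of libraries within a group averaged 0.0251 (SD) at this site, against 0.00588 at 18S Am[m62A]1976.

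A second deposited score set the 10 sites further apart from the guided ones. Over all libraries their median in it was 0.627, against 0.880 for guided sites. Medians of single sites ran from 0.316 at 28S Am3006 to 0.892 at 18S Am[m62A]1976. 28S Am1897, 0.854 by the level score, had a median of 0.435 here. No source used here gives the formula of either score.

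Read ends are nearer to the raw reads than the scores. Ends at a site, 5′ and 3′ together, were counted per 1000 reads of coverage. The median over the 10 sites was 16.0 ends per 1000 reads in LacZ cells, against 3.23 over guided sites. The most ends were found at the thinly covered sites: 224 per 1000 reads at 18S Am[m62A]1977, 187 at 18S Am[m62A]1976 and 124 at 28S Am3006 in LacZ cells. 28S Am549 had the fewest, with 3.87. The ends did not order the sites as the score did. In LacZ cells 18S Am[m62A]1976 had the highest score of the 10, 0.946, and 28S Am549 had 0.874. Coverage relative to the library median was 0.0143 at 18S Am[m62A]1976 and 1.47 at 28S Am549.

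At each of the 10 sites 1 kind of end was in excess in 34 of 34 libraries. This held for 33 of the 59 guided sites (55.9%) and for 44 of all 72 (61.1%). More 5′ ends were found at 4 sites: 27.2-fold more at 28S Um1859, 15.3-fold at 28S Am1897, 4.50-fold at 18S Am[m62A]1977 and 2.80-fold at 18S Gm1300. More 3′ ends were found at the other 6, from 14.4-fold at 18S Um[Psi]568 and 9.25-fold at 18S Am[m62A]1976 to 3.14-fold at 28S Um3162. These folds compare ends summed over all libraries, for example 85592 5′ ends with 3149 3′ ends at 28S Um1859. At least 4-fold more of 1 kind was found at 8 of the 10 sites, 32 of the 59 guided sites and 41 of all 72. The median size of the log2 ratio was 2.40 over the 10 sites and 2.26 over guided sites, so the size of the imbalance does not set the 10 apart. 28S Gm2502 kept 1 kind in excess in 22 of 34 libraries, with 1.67-fold more 5′ ends in the sum. The sources do not say how the position of an end relates to the named nucleotide.

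The adjacent pair in 18S had opposite excesses. 18S Am[m62A]1976 had 452 5′ ends and 4180 3′ ends over all libraries, and 18S Am[m62A]1977 had 6068 5′ ends and 1347 3′ ends. In a single library, paraquat replicate 2, no 5′ end was recorded at 18S Am[m62A]1976, with 206 reads of coverage there.

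**Figure D2:**
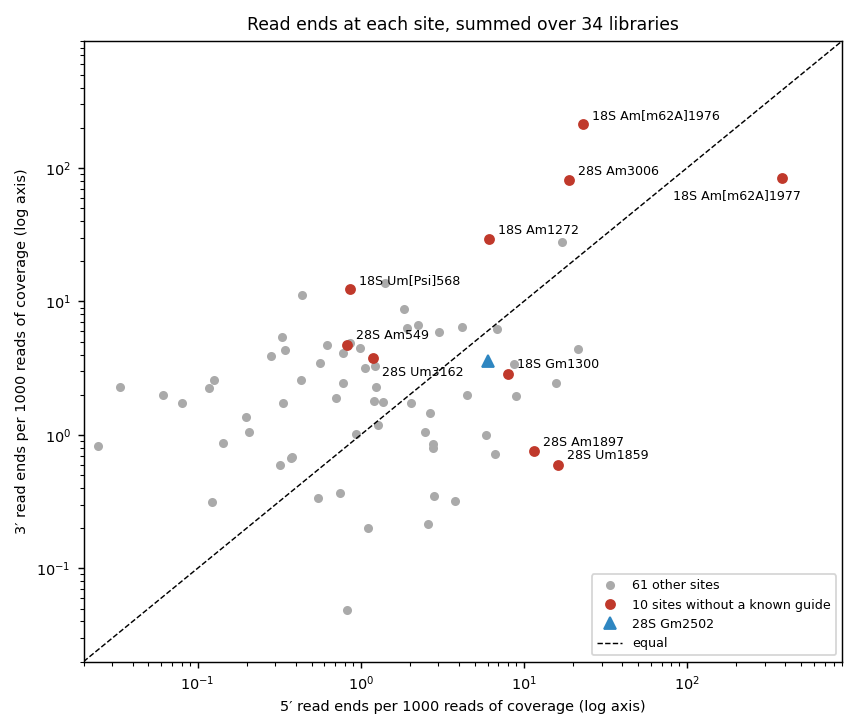
Read ends at each site per 1000 reads of coverage, summed over all 34 libraries, 5′ ends on the horizontal and 3′ ends on the vertical axis (both log axes), with sites of unknown guide, 28S Gm2502 and the 61 other sites marked apart; the line marks equal numbers. All 10 sites lie off the line, from 2.80-fold to 27.2-fold. At least 4-fold more of 1 kind was found at 8 of the 10 and 41 of all 72 sites.

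The knockdown of Fib, the gene for fibrillarin, asks which sites lose protection with less of the guide-dependent enzyme. None of the 10 sites of unknown guide passed the test of the score, and most guided sites fell. In the limma test (Benjamini-Hochberg adjustment over all 72 sites, threshold 0.05) 58 of 72 sites, or 80.6%, passed, among them 56 of the 59 guided sites. Of the 10 sites 0 passed, and 0 had an unadjusted p under 0.05. Among the left-out sites, 28S Gm2502 fell from a mean score of 0.916 to 0.517. It was left out with these values known, so the count of 0 holds for the 10 sites and not for all 11 annotated as unknown.

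Differences of the 10 sites, Fib minus LacZ, lay between -0.0153 and 0.0124 with a median of -0.0018, against a median of -0.143 over all 72 sites. At 18S Um[Psi]568 LacZ cells scored 0.850, 0.850, 0.888 and 0.868, and Fib cells 0.825, 0.840, 0.857 and 0.872. The difference was -0.0153 (95% interval -0.0479 to 0.0173, adjusted p = 0.351 by limma). The libraries overlap, as they did at all 10 sites, whereas 57 of all 72 sites had groups that did not overlap.

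In 18S the other intervals were narrow around 0. The difference was -0.0015 at Am1272 (-0.0307 to 0.0277) and -0.0124 at Gm1300 (-0.0419 to 0.0172). It was -0.0022 at Am[m62A]1976 (-0.0219 to 0.0176) and -0.0113 at Am[m62A]1977 (-0.0415 to 0.0189). No 18S interval reached the median fall of the guided sites, which was -0.169.

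In 28S the difference was 0.00082 at Am549 (-0.0223 to 0.0239) and 0.00985 at Um3162 (-0.0111 to 0.0309). It was -0.0110 at Um1859 (-0.0487 to 0.0266) and 0.0124 at Am3006 (-0.0265 to 0.0513). 28S Am1897 had a difference of -0.00072 and the widest interval of the 10, from -0.0714 to 0.0700. The intervals leave out changes as large as the guided median at each site, but changes within them were not detectable in this fit with 4 libraries a group.

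The order of the sites turned over as the guided sites fell. The median score of the 10 was 0.875 in LacZ and 0.875 in Fib cells, while that of the guided sites went from 0.958 to 0.786. In Fib cells all 10 were among the 36 highest sites, at ranks 4 to 32, and 39 guided sites lay below all of them. With each library centred on its median over the 72 sites, which fell with the knockdown, all 10 sites instead passed as higher, with 55 of 72 sites passing (76.4%). With another of the deposited scores 1 of the 10 passed, 18S Gm1300, lower by 0.0136 with an adjusted p of 0.0497 (limma), where 57 of 72 sites passed (79.2%).

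**Figure D3:**
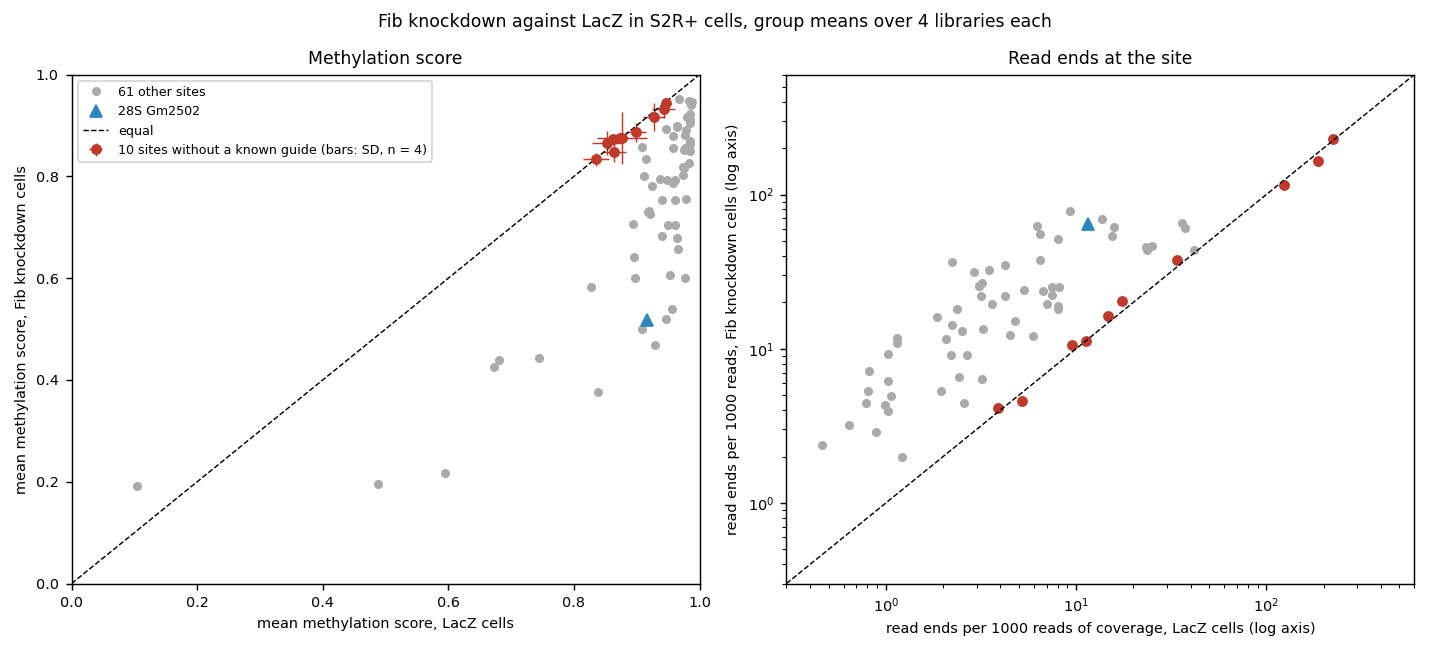
Mean methylation score of each site in LacZ cells (horizontal) and Fib cells (vertical) on the left, and read ends per 1000 reads of coverage on log axes on the right, with sites of unknown guide, 28S Gm2502 and the 61 other sites marked apart. Points are means of 4 libraries, bars are SD (sites of unknown guide, scores) and the dashed line marks equal values. The 10 sites lie along the line, with differences of -0.0153 to 0.0124, and 28S Gm2502 lies at 0.916 against 0.517.

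The read ends of the 10 sites did not pass either. In the test of log2 ends per 1000 reads (a pseudocount of 1 end), 60 of 72 sites passed between Fib and LacZ cells, or 83.3%, and 0 of the 10. Their log2 differences ran from -0.17 to 0.20 with a median of 0.09, against a median of 2.22 over the guided sites. 28S Gm2502 had a log2 difference of 2.49 and passed.

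The 3′ ends taken alone gave 1 of the 10 sites, 28S Um1859, with 61 of 72 sites passing (84.7%). LacZ cells had 82, 67, 68 and 136 3′ ends there, and Fib cells 93, 120, 235 and 252. The log2 difference per 1000 reads was 0.98 (95% interval 0.46 to 1.51, adjusted p = 0.00246 by limma). These are the rare kind of end at this site, which had 1325 to 2281 5′ ends in the same Fib libraries.

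Within the cells, 2 of the 10 sites differed between sets of libraries, in LacZ and Fib cells. Replicates 1 and 2 of both cell groups carry one run of library numbers (set A) and replicates 3 and 4 another (set B), which are taken as sets here, although the labels do not call them batches. In a fit with knockdown and set together, a choice made after seeing the data, 4 of 72 sites, or 5.56%, differed between sets. Among them were the 2 sites, both higher in set B. For comparison, 28S Gm2502 scored 0.599 and 0.580 in set A and 0.441 and 0.447 in set B of the Fib cells, and 0.909 to 0.930 in LacZ cells.

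At 28S Am1897 set A gave 0.825 and 0.865 in LacZ cells and 0.816 and 0.850 in Fib cells. Set B gave 0.915 and 0.901 in LacZ cells and 0.917 and 0.920 in Fib cells. All set B libraries lay above all set A libraries. The difference was 0.0742 (95% interval 0.0425 to 0.106, adjusted p = 0.0261 by limma).

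28S Um1859 showed the same order. In set A its scores were 0.913 and 0.913 in LacZ cells and 0.884 and 0.902 in Fib cells. In set B they were 0.945 and 0.939, and 0.940 and 0.939. The difference was 0.0379 (0.0188 to 0.0571, adjusted p = 0.0449). With set in the fit the knockdown again gave 0 of the 10 sites, with 60 of 72 sites passing (83.3%). The interval of the knockdown difference at 28S Am1897 was then narrower, from -0.0324 to 0.0310.

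Paraquat was compared with sucrose alone in heads. None of the 10 sites passed, and none of the 72 did (0%). With an unadjusted p under 0.05 there were 0 of the 10 and 8 of the 72 sites. Differences of the 10 sites, paraquat minus sucrose, ran from -0.0175 at 28S Am1897 to 0.0034 at 18S Am[m62A]1976. 28S Am1897 scored 0.903, 0.894 and 0.884 on sucrose and 0.877, 0.892 and 0.859 with paraquat, so the groups overlapped. 28S Gm2502 differed by -0.0017 and did not pass.

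The 3 temperatures were compared in pairs that share libraries, so the comparisons are not independent. Between 29 and 18 °C 15 of 72 sites passed, or 20.8%, of which 14 were higher at 29 °C. Among the 10 sites 1 passed, 28S Um3162, and it was the single site of those passing that was lower at 29 °C. The sign was below 0 at 24 of the 72 sites and at 4 of the 10, passing or not. 28S Gm2502 was higher, at 0.985 against 0.965.

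28S Um3162 scored 0.878, 0.911, 0.890 and 0.890 at 18 °C, and 0.890, 0.890, 0.873 and 0.866 at 25 °C. At 29 °C it scored 0.855, 0.862, 0.865 and 0.860. Each 29 °C library lay below all libraries of the other temperatures. The mean fell by 0.0314 from 18 to 29 °C (95% interval -0.0474 to -0.0154, adjusted p = 0.0150 by limma). It passed with any single library left out and did not pass with the second deposited score (adjusted p = 0.315).

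Between 29 and 25 °C the difference at 28S Um3162 was -0.0192 (adjusted p = 0.157). In that comparison 0 of the 10 sites passed and 5 of 72 did, or 6.94%, among them 28S Gm2502, which was higher. At an unadjusted p under 0.05 there were 2 of the 10 and 15 of the 72 sites. Between 18 and 25 °C 0 of the 10 and 1 of 72 sites passed, or 1.39%, with 2 of the 10 and 11 of the 72 at an unadjusted p under 0.05. The largest of these differences among the 10 was 0.0371 at 18S Gm1300, higher at 18 °C (adjusted p = 0.312). 28S Gm2502 did not pass there.

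Other sites came near the threshold between 29 and 18 °C and are named here because of their values. 18S Um[Psi]568 scored 0.870, 0.864, 0.885 and 0.879 at 18 °C and 0.893, 0.893, 0.893 and 0.885 at 29 °C. The groups overlap at the highest 18 °C and the lowest 29 °C library, and the difference of 0.0163 had an adjusted p of 0.0539 (limma). It passed without 18 °C replicate 3 (adjusted p = 0.0131), 25 °C replicate 1 (0.0499) or 25 °C replicate 4 (0.0326).

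18S Am1272 scored 0.7748, 0.8261, 0.8185 and 0.8286 at 18 °C and 0.8297, 0.8430, 0.8594 and 0.8584 at 29 °C. The groups did not overlap, as at 13 of all 72 sites, though the closest libraries lie side by side. The difference of 0.0356 had an adjusted p of 0.113 (limma). At 25 °C its libraries gave 0.8407, 0.8294, 0.7893 and 0.7917. Its 5′ ends numbered 265, 180, 39 and 157 at 18 °C and 75, 57, 49 and 56 at 29 °C. Per 1000 reads the 5′ ends alone fell by 1.19 on the log2 scale from 18 to 29 °C (95% interval -1.81 to -0.56, adjusted p = 0.00501 by limma). Per 1000 reads the 18 °C libraries had 10.3, 7.90, 3.77 and 9.002 5′ ends and the 29 °C libraries 3.14, 3.47, 2.65 and 3.48. The groups did not overlap, with 18 °C replicate 3 closest to the 29 °C libraries. Of all 72 sites 29 passed for 5′ ends alone, or 40.3%. The 5′ ends are the rarer kind at 18S Am1272, with 2932 against 14143 3′ ends over all libraries. Its 3′ ends alone differed by -0.004 on the log2 scale (adjusted p = 0.982 by limma). Both kinds together differed by -0.19 (adjusted p = 0.359 by limma).

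**Figure D4:**
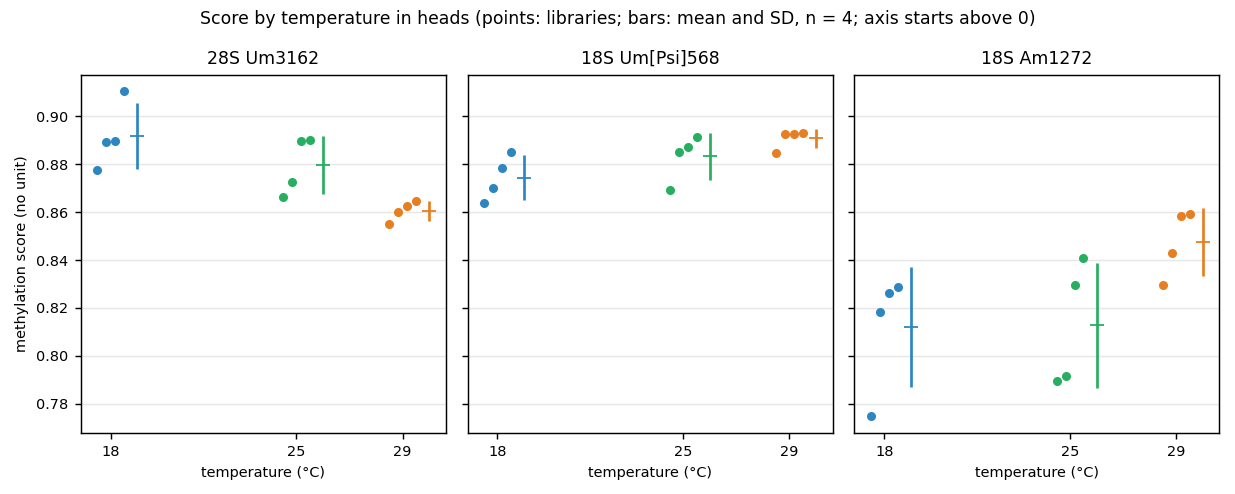
Methylation score (no unit, axis starting above 0) of the 3 of the 10 sites with the lowest adjusted p between 29 and 18 °C, in heads at 18, 25 and 29 °C; points are libraries and bars are the mean and SD of 4. 28S Um3162 goes from a mean of 0.892 at 18 °C to 0.861 at 29 °C, and 18S Am1272 from 0.812 to 0.848.

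The ends of both kinds together gave 0 of the 10 sites between 29 and 18 °C, with 15 of 72 passing (20.8%), and 1 of the 10 and 23 of the 72 at an unadjusted p under 0.05. That 1 was 28S Am549. It had 143, 80, 87 and 99 5′ ends with 562, 308, 184 and 573 3′ ends at 18 °C. At 29 °C it had 166, 78, 120 and 95 5′ ends with 1011, 643, 784 and 746 3′ ends. The log2 difference was 0.49 (0.12 to 0.86, adjusted p = 0.0521 by limma), while its score differed by 0.00506. 28S Gm2502 fell by 1.19 on the log2 scale and passed.

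On low-nutrient against 1x food 0 of the 10 sites and 3 of 72 passed, or 4.17%, and 28S Gm2502 did not. At an unadjusted p under 0.05 there were 1 of the 10 and 11 of the 72 sites. The largest difference among the 10 was -0.0325 at 28S Am1897, with 0.830, 0.858, 0.861 and 0.840 on low-nutrient food and 0.881, 0.858, 0.858 and 0.923 on 1x food (95% interval -0.0673 to 0.0023, adjusted p = 0.368). 18S Um[Psi]568 was next, at -0.0261 (adjusted p = 0.368). Its libraries gave 0.889, 0.888, 0.908 and 0.843 on low-nutrient food and 0.906, 0.908, 0.905 and 0.913 on 1x food, and the groups overlap through 1 low-nutrient library.

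The 3 head control groups, sucrose, 25 °C and 1x food, were averaged with equal weight and compared with LacZ cells. The LacZ libraries also serve the knockdown comparison, and the head controls the other comparisons. Of 72 sites 52 passed, or 72.2%, of which 49 were lower in cells. Among the 10 sites 4 were lower and 0 higher, and 28S Gm2502 was lower, at 0.916 against 0.978. No library set holds both cells and heads, and the source of the RNA and the set cannot be told apart.

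18S Am[m62A]1976 scored 0.948, 0.937, 0.947 and 0.951 in LacZ cells. Head control libraries ran from 0.959 to 0.978, so the groups did not overlap. The difference was -0.0196 (95% interval -0.0257 to -0.0134, adjusted p = 4.15e-05 by limma). It was lower in cells against each head control group taken alone.

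18S Um[Psi]568 averaged 0.864 in cells and 0.889 in head controls (difference -0.0251, -0.0388 to -0.0115, adjusted p = 0.00309). Against sucrose heads alone, which scored 0.878, 0.879 and 0.870, it did not pass (adjusted p = 0.208). 28S Um3162 averaged 0.863 and 0.889 (difference -0.0262, -0.0425 to -0.0099, adjusted p = 0.0072), and did not pass against 25 °C heads alone (adjusted p = 0.108) or with library set as a random block (adjusted p = 0.0765).

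28S Am3006 averaged 0.853 in cells and 0.884 in head controls (difference -0.0312, -0.0574 to -0.0049, adjusted p = 0.0343). The call was lost without LacZ replicate 1 (adjusted p = 0.143), LacZ replicate 2 (0.0718), sucrose replicate 1 (0.0540), 25 °C replicate 1 (0.0511) or 1x food replicate 1 (0.0510). It was also lost with library set as a random block (0.160) and in the exact permutation test (0.108), and the second deposited score gave the opposite sign.

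The sign of 3 of these 4 differences turned when libraries were centred on their medians, and 28S Am3006 was then at -0.0031 and did not pass. On that scale 6 of the 10 sites passed as higher in cells and 0 as lower, with 55 of 72 sites passing (76.4%). The head controls also differed among themselves, by up to 0.0853 at 18S Gm1300, where sucrose heads averaged 0.941 and 25 °C heads 0.855. At 28S Am1897 they spanned 0.0710. The sucrose heads, highest at both sites, belong to another library set than the 25 °C and 1x food heads. Their group and set cannot be told apart.

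At both of the adjacent sites in 18S LacZ cells had fewer read ends per 1000 reads than the head controls. 18S Am[m62A]1976 had 187 in LacZ cells, against 307 on sucrose, 240 at 25 °C and 245 on 1x food. Its score was lower in LacZ cells too, at 0.946 against 0.965, 0.970 and 0.962 in the same order. Fewer ends would stand for more protection and a lower score for less, so ends per 1000 reads and score differ in direction at 18S Am[m62A]1976. Coverage there, by which the ends are divided, was 0.0143 of the library median in LacZ cells. In the head controls it was 0.00538 to 0.00994. Fewer ends per 1000 reads therefore cannot be read as more protection in cells. At 18S Am[m62A]1977 LacZ cells had 224 ends per 1000 reads, against 431 on sucrose, 485 on 1x food and 653 at 25 °C. The scores of 18S Am[m62A]1977 averaged 0.943 in LacZ cells and 0.944 over the head controls. Its coverage relative to the library median was 0.0120 in LacZ cells and 0.00381 to 0.00815 in the head controls. These values are a description, and no test of the ends between cells and heads was made.

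Among the listed sites, the one whose 9 group means were most like those of 18S Am[m62A]1976 was the guided 18S Am441, with a Pearson r of 0.931. For 18S Um[Psi]568 it was the guided 18S Am425 (r = 0.804), for 28S Am3006 28S Um1859 (r = 0.755), and for 28S Um3162 28S Am3006 (r = 0.577). These values rest on 9 means from the same libraries and describe likeness only.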

How the data were processed

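Per the labels' protocols, 150 ng of RNA was hydrolysed for 16 min and sequenced as RiboMeth-seq libraries. Trimmomatic 0.39, Bowtie2 and dm6 appear per the submitters' processing notes. What the reads were aligned to, how they were filtered and how the scores were computed remain not given in the sources used here. For 72 positions in each of 34 tables the authors deposited level scores, a coverage signal (reads over the position, not normalized) and whole-number read ends, with 0.1 standing for none. The deposited score used was chosen by its column name and range.

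Sites and lists were chosen with earlier results of these data known. Each comparison was fitted over all 72 sites with limma 3.58.1 (R 4.3.3; Python 3.11.15 for descriptions), two-sided, adjusted by Benjamini-Hochberg at 0.05. The 3 temperatures shared 1 fit, as did LacZ cells and the 3 head controls. Scores were tested on the linear scale and ends as log2 per 1000 reads of coverage with a pseudocount of 1. All 10 sites were named, with full statistics where a test passed. The score fit was tested on simulated data of the knockdown comparison. The simulated shift was larger than any knockdown difference of the 10 sites, and no library sets were simulated.

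Alternatives were the other 2 deposited scores, log2 odds, centring, a coverage minimum of 1000 reads, a replicate block, exact permutation, each library left out and 28S Gm2502 counted in. In the knockdown, same-numbered libraries deviated together in all 4 pairs (r from 0.165 to 0.574), which met the criterion for pairing. Other-numbered libraries of the same library set did so as well (0.463 to 0.519), so the deviations follow the set rather than the number. Those of different sets did not (-0.683 to -0.324). Deviations from a group mean cancel within the group, so positive values within sets bring negative ones between sets and these add no separate support. In the other comparisons same-numbered r ran from -0.377 to 0.344. No pair of replicates agreed within counting noise (lowest chi-square per degree of freedom 2.10 over 48 pairs). The excess was uneven. At 18 °C pairs with replicate 3 gave 36.4 to 44.8, and the others 5.67 to 14.0. On low-nutrient food pairs with replicate 4 gave 25.5 to 36.4, and the others 2.33 to 2.60. In LacZ cells pairs with replicate 3 gave 25.6 to 32.5, and the others 3.77 to 11.5. In Fib cells pairs across sets gave 26.6 to 35.7, and pairs within sets 5.19 and 6.34. Score intervals for single libraries were not computed because the formula was not given.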

Additional observations from a re-analysis of the deposited data

Results flagged for a closer look

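In groups of 4 libraries, 5 of 70 site and group combinations had 1 library far from the others by Dixon's criterion, which chance gives in about 1 of 20. 18S Um[Psi]568 at 29 °C was lowest in replicate 4, at 0.885, against 0.893 in each of the others. 18S Gm1300 was lowest in LacZ replicate 2, at 0.876 against 0.906 to 0.907, and in 29 °C replicate 4, at 0.863 against 0.873 to 0.874. In 18 °C replicate 3, 18S Am[m62A]1976 was highest, at 0.992 against 0.964 to 0.968 with 144 reads of coverage, and 28S Am549 was lowest, at 0.811 against 0.866 to 0.874.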

How the results depend on the processing

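Of 391 values of single sites recomputed, 357 kept their sign and side of the threshold or had passed in neither fit, 14 no longer passed, 9 newly passed and 11 reversed. In the knockdown the count of 0 became 1 with the third deposited score, 1 with 28S Gm2502 counted in and 10 with centring. Centring, which sets sites against the fallen library median, turned the difference to 0.130 at 18S Um[Psi]568, 0.144 at 18S Am1272, 0.133 at 18S Gm1300, 0.143 at 18S Am[m62A]1976, 0.134 at 18S Am[m62A]1977, 0.134 at 28S Um1859 and 0.144 at 28S Am1897. Between 29 and 18 °C the count of 1 became 0 with the second score, 3 with the third, 2 with centring, 2 with 28S Gm2502 counted in, and 1 to 2 over left-out libraries. The exact permutation test gave 0 there, but its smallest p of 0.0286 could not pass the adjustment unless far more sites reached it. The same limit holds in the other comparisons of 4 against 4 head libraries, and with paraquat the smallest p is 0.10, so the counts of 0 from this test in heads say nothing. Between 29 and 25 °C counting 28S Gm2502 in gave 1, and with the third score 1 site passed on low-nutrient food. Between cells and heads centring gave 0.00292 at 18S Um[Psi]568, 0.00847 at 18S Am[m62A]1976 and 0.00187 at 28S Um3162, and the second score gave 0.101 at 28S Am3006. The random block left 2 sites, the exact permutation test 3, and left-out libraries gave 3 to 5, with 28S Um1859 added without LacZ replicate 3. For read ends, the 3′ ends alone gave 1 in the knockdown. Between 29 and 18 °C the 5′ ends alone gave 1, and left-out libraries 0 to 1 (28S Am549, without 18 °C replicate 3 or 4). The cause of changes other than centring, counting in and left-out libraries was not tested.

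With the replicate block the knockdown again gave 0 of the 10 sites, with 60 of 72 sites passing. In the comparisons of heads, where the samples share only a number, the block gave 1 site for read ends between 29 and 18 °C, 28S Am549, and changed no other count of the 10. The minimum of 1000 reads removed 18S Am[m62A]1976 and 18S Am[m62A]1977.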
